A study of Mus musculus with 8 samples.

Results

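The genes of cholesterol and fatty acid synthesis were examined in RNA sequencing libraries of mouse bone marrow derived macrophages, phagocytic immune cells grown from marrow. The set was fixed by symbol, with earlier results of these data known. Shares of members that changed are therefore set beside those of all genes as a description only. It holds 33 genes, all of them found among the 54532 genes of the deposited expression table. By role, 8 belong to the mevalonate pathway, 11 to the squalene and sterol steps, 5 regulate the SREBP transcription factors, 1 moves sterol between membranes, and 8 make or desaturate fatty acids. The study crossed a buffer control, PBS, or spermine, a polyamine that cells also make, with IFN-β, an antiviral type I interferon, given for 0 h or 3 h. This gave 4 groups of 2 libraries, named by agent and time from PBS 0 h to spermine 3 h, and neither a genotype nor a strain or age of the mice is given in the sources used here. The dose and length of spermine treatment and the dose of IFN-β are not given there either, and the buffer is PBS by the sample labels but DMSO by the design text. No group was held for 3 h without IFN-β, so a change with IFN-β also contains whatever those 3 h changed by themselves.

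Cholesterol is built from acetyl-CoA through mevalonate, squalene and lanosterol, and fatty acids are built from the same precursor by ACLY, ACC and fatty acid synthase and then desaturated. Both branches are transcribed under the SREBP factors, which SCAP escorts from the endoplasmic reticulum when membrane sterol is low and which the INSIG proteins hold back when it is high. In macrophages, which take up much lipid from outside, type I interferon is known to lower sterol synthesis.

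The libraries held between 15723437 and 17744844 reads, and this depth sets the counting precision. Reads were rebuilt from the deposited FPKM, which is fragments per kilobase of gene length, scaled by a factor for each library. The members took 0.240% ± 0.00607 of all reads at PBS 0 h and 0.125% ± 0.00481 at PBS 3 h (mean ± SD, n = 2 libraries). With spermine they took 0.252% ± 0.00161 at 0 h and 0.169% ± 0.000320 at 3 h. The deposited scaling factor did not follow the read totals, so shares of reads and sums of FPKM moved unequally. The members' summed FPKM was 401 at PBS 0 h, 315 at PBS 3 h, 521 at spermine 0 h and 468 at spermine 3 h (means). Levels below are FPKM. Changes are differences of log2(FPKM + 1), a scale that compresses the changes of genes near or below 1 FPKM. A gene rose or fell where limma gave an adjusted p under 0.05 over the 11421 genes that reached 1 FPKM in at least 2 libraries. Of the 33 members 31 were tested, and Fdps and Tm7sf2 were among them only through their levels at PBS 0 h. The other two, Scd1 and Elovl6, stayed below 1 FPKM in all 8 libraries. The labels do not say whether the 2 libraries of a group came from separate mice or cultures, so the p-values reflect only the scatter between these libraries, possibly technical. The deposited scaling holds the median gene near no change, whereas rescaling to TPM (the same sum in each library) shifted the median gene by -0.46 for IFN-β in PBS, -0.33 for IFN-β with spermine, -0.34 for spermine at 0 h and -0.20 for spermine at 3 h. The summed FPKM of all genes was 248254 and 253576 in the PBS 0 h libraries and 404833 and 400534 in the spermine 3 h libraries.

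The macrophage label held against its markers: 8 of 8 were present, with a summed level of 11204 to 13807 FPKM, while Cd3d, Cd3e, Cd3g, Ly6g, Plin1, Lep, Hbb-bs, Hbb-bt and Hba-a1 were at 0 in every library. Lyz2 alone gave 7799 to 9901 FPKM of that sum, and single macrophage markers moved. With spermine 3 of the 8 rose and 2 fell at each time. The 2 were Mertk (-1.13 and -0.64) and Fcgr1 (-0.54 and -0.34). With IFN-β Mertk rose by 1.13 in PBS and 1.61 with spermine, and Fcgr1 by 3.55 and 3.76. Summed adipocyte markers reached at most 0.104 FPKM, and erythroid markers at most 0.0727 FPKM. Of 4 dendritic cell markers, the sum moved with both agents, from 0.325 to 0.336 FPKM at PBS 0 h to 3.22 to 4.50 at PBS 3 h, 1.186 to 1.188 at spermine 0 h and 5.68 to 6.54 at spermine 3 h. Xcr1 alone made that movement (0.118 and 0.0891 FPKM at PBS 0 h, 4.34 and 2.97 at PBS 3 h), while Flt3, Zbtb46 and Siglech stayed at or below 0.205 FPKM in every library. Neutrophil markers summed to between 4.82 and 8.0 FPKM and T cell markers to between 2.61 and 4.16 FPKM. The part of these markers in the changes below was not tested, and in bulk RNA fewer cells of a type and less RNA per cell cannot be told apart.

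**Figure D1:**
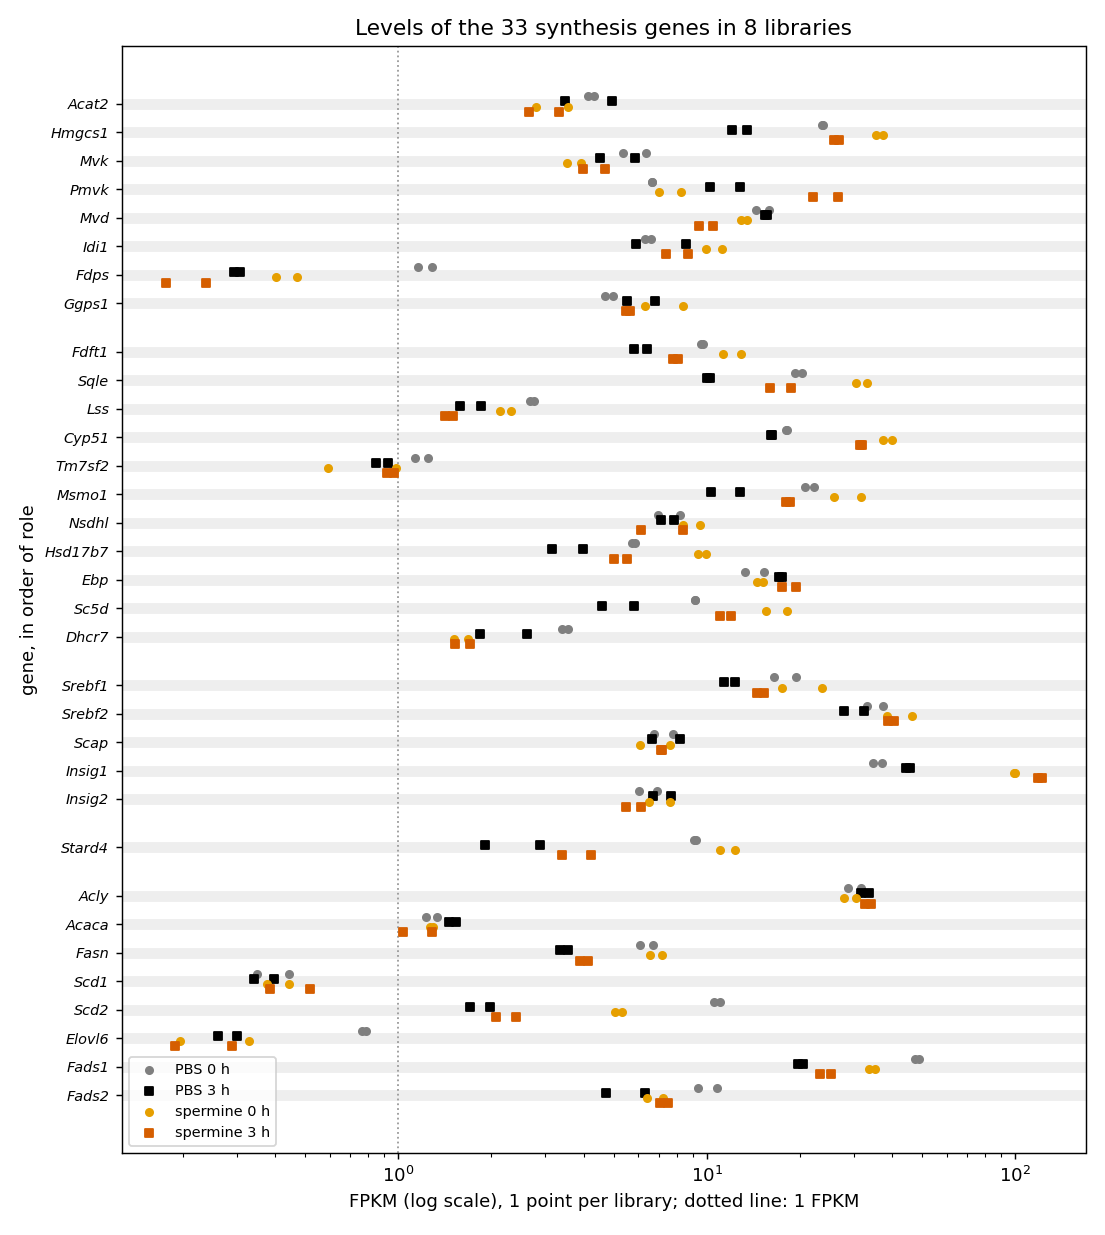
Level of each of the 33 genes in each of the 8 libraries, in FPKM on a log axis, with genes ordered by role from the mevalonate pathway (top) to fatty acid synthesis and desaturation (bottom). Insig1 is the most abundant of them in the spermine libraries, at 99.2 to 121.9 FPKM, and Scd1, Elovl6 and most points of Fdps lie below the dotted line at 1 FPKM.

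Promoters were read from RefSeq (build GRCm38.p6) as windows from 250 bases before to 50 after a start. For 26 of the 33 members 34 such windows were listed, and Fdps, Fdft1, Sqle, Stard4, Scd1, Scd2 and Fads1 have no entry. Hmgcs1, Cyp51, Sc5d and Insig1 are shown because their transcripts were higher with spermine at both times, and Fads2 because its transcript was lower at 0 h. The 250 bases before the start are given 5′ to 3′ on the strand of the gene, at chr13:119690101-119690350 (plus strand) for Hmgcs1, chr5:4104698-4104947 (minus) for Cyp51, chr9:42264301-42264550 (minus) for Sc5d, chr5:28071162-28071411 (plus) for Insig1 and chr19:10101504-10101753 (minus) for Fads2. Capitals mark the sterol regulatory element, searched as TCACNCCAC, and the CCAAT box, searched as CCAAT, each on both strands (ATTGG is CCAAT on the other strand).
Hmgcs1: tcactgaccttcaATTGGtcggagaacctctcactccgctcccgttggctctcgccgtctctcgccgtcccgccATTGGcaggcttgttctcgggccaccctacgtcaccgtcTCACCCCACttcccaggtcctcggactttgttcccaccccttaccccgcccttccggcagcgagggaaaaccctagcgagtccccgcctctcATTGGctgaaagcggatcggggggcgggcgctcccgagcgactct
Cyp51: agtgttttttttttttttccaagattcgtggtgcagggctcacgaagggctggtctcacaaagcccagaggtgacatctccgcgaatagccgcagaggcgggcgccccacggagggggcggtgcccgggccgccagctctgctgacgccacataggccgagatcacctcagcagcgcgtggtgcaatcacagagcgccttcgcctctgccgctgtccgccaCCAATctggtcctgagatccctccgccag
Sc5d: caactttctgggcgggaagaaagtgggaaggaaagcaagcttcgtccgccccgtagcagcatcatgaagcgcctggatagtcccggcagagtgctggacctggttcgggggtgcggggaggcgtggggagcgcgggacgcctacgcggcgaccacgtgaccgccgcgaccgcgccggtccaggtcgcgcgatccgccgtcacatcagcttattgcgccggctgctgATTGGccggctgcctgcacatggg
Insig1: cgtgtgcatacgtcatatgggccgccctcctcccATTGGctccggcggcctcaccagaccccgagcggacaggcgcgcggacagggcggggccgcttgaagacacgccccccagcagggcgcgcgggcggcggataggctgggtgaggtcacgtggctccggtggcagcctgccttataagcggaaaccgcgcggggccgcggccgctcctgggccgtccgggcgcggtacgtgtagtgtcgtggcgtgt
Fads2: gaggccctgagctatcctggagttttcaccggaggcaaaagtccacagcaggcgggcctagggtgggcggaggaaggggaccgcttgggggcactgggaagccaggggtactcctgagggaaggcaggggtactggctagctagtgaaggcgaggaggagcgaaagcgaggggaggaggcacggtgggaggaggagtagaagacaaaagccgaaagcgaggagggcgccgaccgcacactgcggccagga
The element of Hmgcs1 began 137 bases before the start, and Hmgcs1 was the 1 member of 26 that held it (3.85%, against 1.36% of the tested genes with an entry), or 2.94% of the members' windows against 1.24% of all 32851 windows. CCAAT was present for 21 of the 26 members (80.8%) in at least 1 window, against 42.5% of the tested genes with an entry, and in 64.7% of the members' windows against 37.4% of all windows. It began 29 bases before the start in Cyp51, 24 in Sc5d and 216 in Insig1, at 237, 176 and 45 bases in Hmgcs1, which has a further match after the start, and was not matched in Fads2. The other members that fell with spermine and have an entry did match CCAAT. Mvk had 5 matches, Mvd had 2, and Dhcr7 had 2 in 1 of its windows. The GC box GGGCGG was likewise present for 80.8% of members, against 69.4% of tested genes (73.5% of the members' windows against 35.7% of all). CCAAT overlapped another motif in 0 of the members' windows, and 5 members have several windows, which raises their chance of a match. These are matches of letters and not sites of binding.

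With spermine, 6 of the 11 squalene and sterol genes, the regulator Insig1 and 1 of the 8 mevalonate genes, Hmgcs1, rose at both times, and in cells without IFN-β the desaturases Scd2, Fads1 and Fads2 fell. At 0 h, 10 of the 31 members tested rose (32.3%, against 22% of all genes tested) and 6 fell (19.4%, against 19.2%). At 3 h of IFN-β, 12 rose (38.7%, against 19.9%) and 1 fell (3.23%, against 20.6%). Without Fdps and Tm7sf2, which reached the test only through their PBS 0 h level, 5 of 29 fell at 0 h and the median was 0.17. The median change of the 31 members was 0.10 at 0 h and 0.17 at 3 h, beside 0.01 and -0.003 for all genes tested, but after TPM rescaling it was -0.22 at 0 h and 0.002 at 3 h, with 6 rising and 13 falling at 0 h and 7 rising and 5 falling at 3 h. Over all genes the share of changed genes that rose went from 53.3% to 20.0% at 0 h and from 49.2% to 26.7% at 3 h on that scale. The comparisons at 0 h and at 3 h share no library in their means. Both come from 1 fit of all 8 libraries and share its estimate of spread, so their calls are not independent. Cyp51, Fdft1, Hmgcs1, Hsd17b7, Insig1, Msmo1, Sc5d and Sqle rose in both, although Fdft1 stood at -0.02 at 0 h on the TPM scale. They were 80% of the members that rose at 0 h and 66.7% of those that rose at 3 h. The same overlap was not counted over all genes tested, so whether it is particular to the members was not tested. The median at 0 h was 0.17 with PBS 0 h replicate 1 left out and 0.062 with spermine 0 h replicate 2 left out, and that at 3 h was 0.26 without spermine 3 h replicate 1. The number that rose at 0 h was 6 when either PBS 0 h library or spermine 0 h replicate 1 was left out, and the number that fell at 3 h was 3 without PBS 3 h replicate 1.

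**Figure D2:**
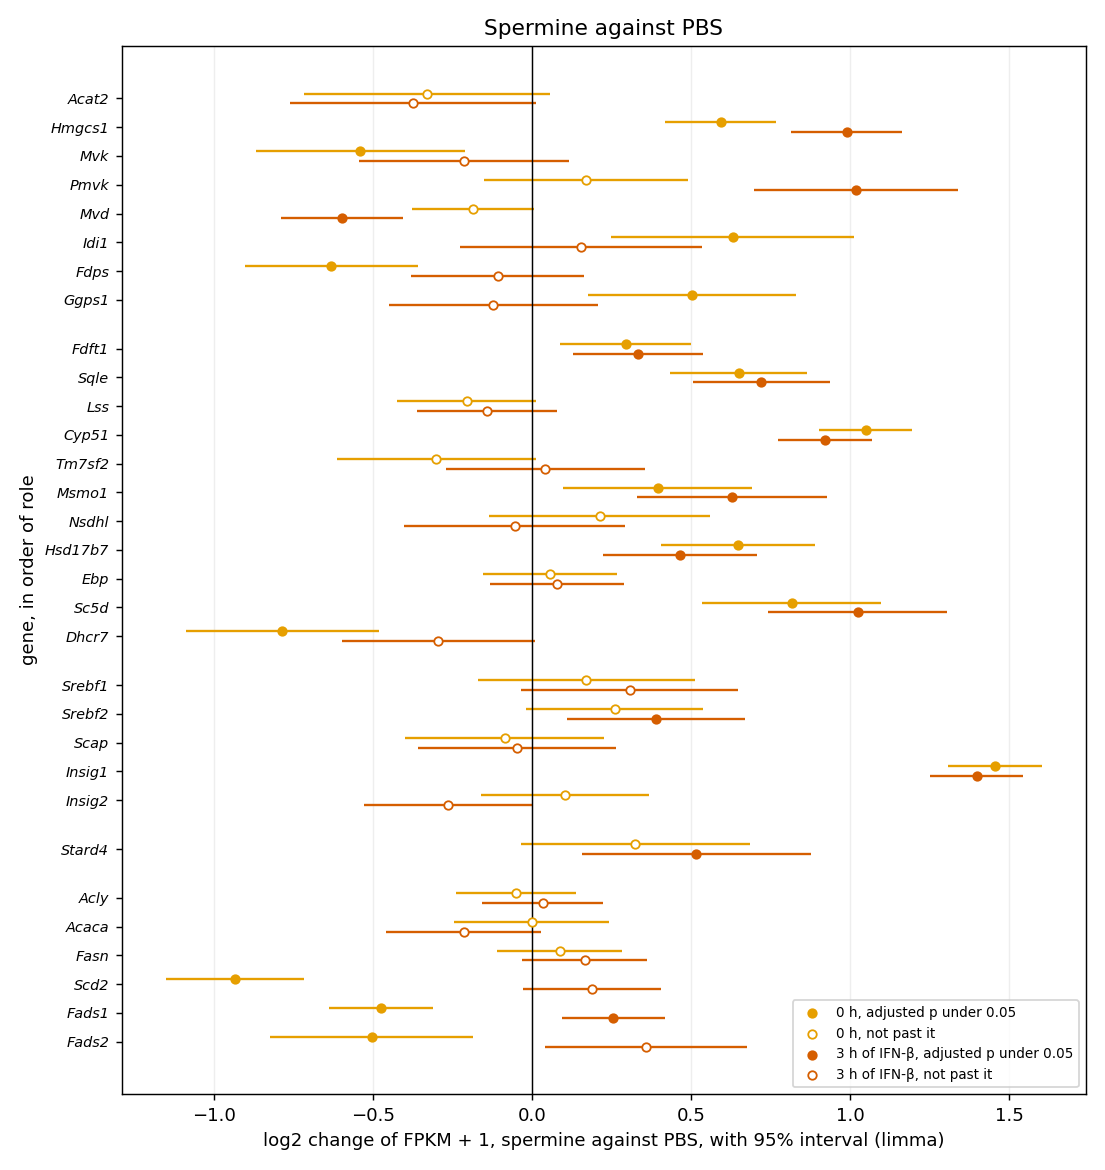
Change of each tested member with spermine against PBS, on the log2 scale of FPKM + 1, at 0 h (light) and at 3 h of IFN-β (dark), with 95% limma intervals (n = 2 libraries a group). Filled points passed the test. Insig1 lies farthest to the right at both times (1.45 and 1.4), and Scd2 farthest to the left at 0 h (-0.93).

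Among the regulators, Insig1, which retains SCAP and the SREBP precursors in the endoplasmic reticulum, had the largest response of any member to spermine. Its level was 34.5 and 37.0 FPKM at PBS 0 h and 99.2 and 100.2 at spermine 0 h. At 3 h it was 44.3 and 45.6 FPKM in PBS and 121.9 and 118.2 with spermine, so that the 4 spermine libraries lay far above the 4 PBS libraries. The log2 change was 1.45 ± 0.06 (SE) at 0 h (limma, adjusted p = 1.47e-05) and 1.40 ± 0.06 at 3 h (adjusted p = 1.66e-05). Its relative Insig2 had 6.91 and 6.04 FPKM at PBS 0 h, 7.67 and 6.68 at PBS 3 h, 7.58 and 6.51 at spermine 0 h and 6.13 and 5.48 at spermine 3 h. The Insig2 pairs overlapped at 0 h and the spermine pair lay below the PBS pair at 3 h, and neither change passed (0.10 and -0.27, with 95% intervals from -0.16 to 0.37 and from -0.53 to -0.00096).

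Srebf2, which encodes the SREBP of sterol synthesis, measured 32.97 and 37.3 FPKM at PBS 0 h, 27.8 and 32.4 at PBS 3 h, 38.5 and 46.3 at spermine 0 h, and 40.6 and 38.6 at spermine 3 h. It rose with spermine at 3 h by 0.39 ± 0.12 (SE, adjusted p = 0.0362), which did not pass when PBS 3 h replicate 1 (0.28), spermine 3 h replicate 1 (0.35) or spermine 3 h replicate 2 (0.42) was left out, nor after TPM rescaling (0.19), quantile normalization (0.24) or with no filter. At 0 h its change of 0.26 did not pass. Srebf1, whose product favours fatty acid genes, had 16.6 and 19.5 FPKM at PBS 0 h, 11.4 and 12.4 at PBS 3 h, 17.6 and 23.6 at spermine 0 h, and 15.4 and 14.5 at spermine 3 h. Its spread at spermine 0 h was wide, and neither change with spermine passed (0.17 at 0 h and 0.31 at 3 h). Scap, the escort protein, ranged from 6.06 to 8.21 FPKM over the 8 libraries, with 6.77 and 7.78 at PBS 0 h, 6.64 and 8.21 at PBS 3 h, 6.06 and 7.58 at spermine 0 h, and 7.16 and 7.09 at spermine 3 h. The Scap groups overlapped, with changes of -0.09 and -0.05.

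In the mevalonate pathway 3 of 8 genes rose and 2 fell at 0 h, and 2 rose and 1 fell at 3 h. Over all genes tested 22% rose and 19.2% fell at 0 h, and 19.9% rose and 20.6% fell at 3 h. Counts of 2 of 8 lie near these shares. Hmgcs1, the synthase that makes HMG-CoA, had 23.7 and 23.8 FPKM at PBS 0 h against 37.3 and 35.3 at spermine 0 h, and 13.5 and 12.1 at PBS 3 h against 26.8 and 25.8 at spermine 3 h. It rose by 0.59 at 0 h (adjusted p = 0.001) and by 0.99 at 3 h (adjusted p = 0.000131), with the spermine pair above the PBS pair each time. Pmvk, phosphomevalonate kinase, had 6.65 and 6.63 FPKM at PBS 0 h and 6.98 and 8.28 at spermine 0 h, a change of 0.17 that did not pass. At 3 h it had 10.2 and 12.8 FPKM in PBS and 26.6 and 22.1 with spermine, 2 pairs that did not overlap, and rose by 1.02 ± 0.13 (SE, adjusted p = 0.00138). Mvd, the decarboxylase that yields isopentenyl diphosphate, was the gene that fell at 3 h (-0.60, adjusted p = 0.0015).

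Idi1, the isomerase of the isoprene unit, and Ggps1, which makes geranylgeranyl diphosphate, rose at 0 h by 0.63 and 0.50. Neither passed with no filter, on the TPM scale (0.35 and 0.23) or when PBS 0 h replicate 1 (0.66 and 0.54), PBS 0 h replicate 2 (0.60 and 0.47) or spermine 0 h replicate 1 (0.55 and 0.32) was left out, and Ggps1 did not pass in a fit of the 2 groups alone. Ggps1 shares 257 bases with its neighbour Arid4b on the opposite strand, and Arid4b itself rose by 1.05 at 0 h, so Ggps1 reads are uncertain. Mevalonate kinase, Mvk, fell at 0 h by 0.54 on the log2 scale, which did not pass with no filter or when replicate 2 of PBS 0 h (-0.43) or of spermine 0 h (-0.48) was left out. Farnesyl diphosphate synthase, Fdps, was low throughout, at 1.16 and 1.29 FPKM at PBS 0 h and 0.402 and 0.470 at spermine 0 h. Because it reached the test only through PBS 0 h, its change (-0.63) is given as a description, and with no filter on low levels its adjusted p was 0.00398. Fdps shares near-identical sequence with 5 other genes of the annotation, so that its reads may be split. Of these, Gm43738 overlaps Fdps on the same strand, and Gm3571 was listed at 3.05 to 5.67 FPKM in the group means. Gm3571 stood at 3.62 FPKM at PBS 0 h and 4.40 at spermine 0 h, a change of 0.22 that did not pass. Gm5873, another of the 5, stood at 0.951 FPKM at PBS 0 h and 0.675 at spermine 0 h (means), a change of -0.22 that did not pass. Idi1 also has near copies. Acat2, the thiolase at the head of the pathway, gave changes of -0.33 and -0.37, neither of which passed. It too has a close copy, Acat3, at 0.0735 to 0.0866 FPKM in the group means. Acat2 also shares 445 bases on the opposite strand with Tcp1, listed at 14.7 to 21.8 FPKM in the group means. Tcp1 rose with spermine by 0.37 at 0 h and 0.30 at 3 h, so Acat2 reads are uncertain.

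Of the squalene and sterol genes 6 of 11 rose at each time and 1 fell at 0 h. Over all genes tested 22% rose at 0 h and 19.9% at 3 h, and 19.2% fell at 0 h. Cyp51, the lanosterol demethylase, measured 18.2 and 18.1 FPKM at PBS 0 h against 39.9 and 37.3 at spermine 0 h, and 16.3 and 16.2 at PBS 3 h against 31.5 and 31.8 at spermine 3 h. Replicates lay close together and the spermine pairs stood well clear of the PBS pairs, with a log2 change of 1.05 ± 0.06 (SE, adjusted p = 4.77e-05) at 0 h and 0.92 ± 0.06 (adjusted p = 8.56e-05) at 3 h. Sc5d, the sterol desaturase near the end of the pathway, had 9.15 and 9.16 FPKM at PBS 0 h against 18.3 and 15.6 at spermine 0 h, and 5.80 and 4.57 at PBS 3 h against 11.03 and 12.001 at spermine 3 h. It rose by 0.82 at 0 h (adjusted p = 0.00196) and by 1.02 at 3 h (adjusted p = 0.000777). Sqle, squalene epoxidase, a slow step of the pathway, rose by 0.65 and 0.72, and Hsd17b7, a sterol ketone reductase, by 0.65 and 0.47. The 3 h call of Hsd17b7 was lost without spermine 3 h replicate 2 (0.40) and after TPM rescaling (0.34).

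Msmo1, the sterol methyl oxidase, rose by 0.40 at 0 h and by 0.63 at 3 h, and the 0 h call was lost without either PBS 0 h library, without spermine 0 h replicate 1 or without either spermine 3 h library (0.26 to 0.44), after TPM rescaling (0.06), after quantile normalization (0.20), with no filter, without the trend and in a fit of the 2 groups alone. Fdft1, squalene synthase, rose by 0.29 at 0 h and 0.33 at 3 h, with the 0 h change at -0.02 after TPM rescaling and the 3 h change no longer past the test there (0.16). Its 0 h change did not pass after quantile normalization (0.21), with no filter or in a fit of the 2 groups alone, and that call was lost without either PBS 0 h library, spermine 0 h replicate 1 or either spermine 3 h library (0.20 to 0.30), and its 3 h call without PBS 3 h replicate 2 or either spermine 3 h library (0.27 to 0.36) and in a fit of the 2 groups alone. Fdft1 shares 774 bases on the opposite strand with Ctsb, a lysosomal protease gene listed at up to 3652 FPKM, and Ctsb rose by 0.27 at 0 h, so the small changes of Fdft1 are uncertain. Dhcr7, the reductase that completes cholesterol, went the other way at 0 h, from 3.41 and 3.54 FPKM to 1.52 and 1.68 (-0.78, adjusted p = 0.00314). Lss, Tm7sf2, Nsdhl and Ebp, the cyclase that forms lanosterol and enzymes of later sterol reduction, demethylation and isomerization, did not pass at either time, with changes between -0.30 and 0.21.

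Stard4, a carrier of cholesterol between membranes, had 9.08 and 9.20 FPKM at PBS 0 h and 12.4 and 11.1 at spermine 0 h, a change of 0.32 that did not pass. At 3 h it had 2.87 and 1.91 FPKM in PBS and 4.23 and 3.40 with spermine, 2 pairs that did not overlap (0.52 ± 0.15 SE, adjusted p = 0.0322). It did not pass with no filter, in a fit of the 2 groups alone, on the TPM scale (0.43) or with either PBS 0 h library (0.52 each), PBS 3 h replicate 2 (0.31) or spermine 3 h replicate 1 (0.39) left out.

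Of the 6 fatty acid genes tested, 3 fell at 0 h and 1 rose at 3 h, and the genes that fell were the desaturases. Over all genes tested 19.2% fell at 0 h and 19.9% rose at 3 h. Scd2, a stearoyl-CoA desaturase that makes monounsaturated fatty acids, had 11.1 and 10.6 FPKM at PBS 0 h and 5.05 and 5.33 at spermine 0 h, a log2 change of -0.93 ± 0.09 (SE, adjusted p = 0.000376). At 3 h its 2 pairs were at 1.98 and 1.70 FPKM in PBS and 2.07 and 2.41 with spermine, a change of 0.19 that did not pass. Fads1, a desaturase of polyunsaturated fatty acids, had 47.3 and 48.8 FPKM at PBS 0 h and 35.0 and 33.6 at spermine 0 h (-0.47, adjusted p = 0.00194). At 3 h it had 19.8 and 20.5 FPKM in PBS and 23.2 and 25.4 with spermine and rose by 0.26 (adjusted p = 0.0236), which did not pass with PBS 3 h replicate 1 (0.23) or spermine 3 h replicate 2 (0.19) left out, nor after TPM rescaling (0.06), quantile normalization (0.12) or in a fit of the 2 groups alone. Its neighbour on chromosome 19, Fads2, which acts before it in the same pathway, fell at 0 h by 0.50 on the log2 scale, which did not pass with no filter or when PBS 0 h replicate 1 (-0.41) or spermine 0 h replicate 2 (-0.43) was left out. Fasn, Acaca and Acly, which make palmitate and its precursors, gave changes between -0.05 and 0.09 at 0 h and between -0.21 and 0.17 at 3 h, none past the test. Reads of Scd2 may be shared with its near copy Scd1. Without a filter on low levels Elovl6, a fatty acid elongase, fell at 0 h (-0.49, adjusted p = 0.0106) from 0.788 and 0.764 FPKM to 0.329 and 0.197, and Scd1 did not pass (0.01).

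**Figure D3:**
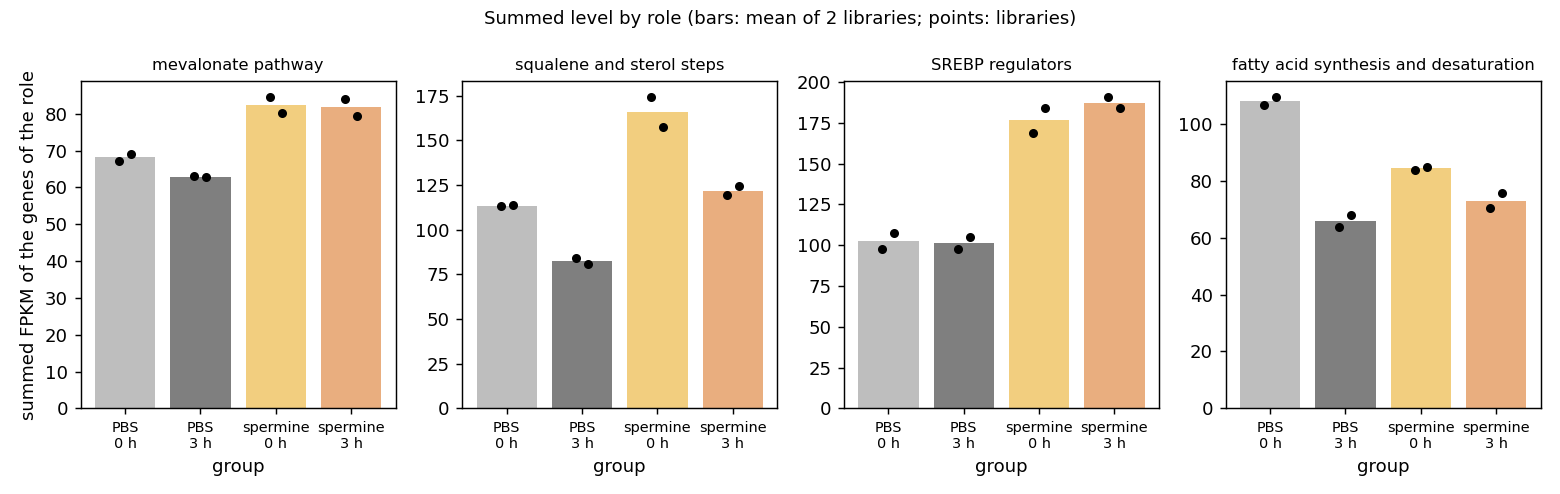
Summed FPKM of the genes of 4 roles in each group, with bars at the mean of 2 libraries and points at each library. Sums over the squalene and sterol steps were 113.1 and 113.6 at PBS 0 h, 84.2 and 80.9 at PBS 3 h, 174.6 and 157.7 at spermine 0 h and 119.3 and 124.4 at spermine 3 h, whereas those of the fatty acid genes were highest at PBS 0 h (106.7 and 109.5).

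With 3 h of IFN-β in PBS, 7 of the 11 sterol genes, the sterol carrier Stard4 and 4 of the 6 fatty acid genes tested fell, while Ebp, Insig1 and Pmvk rose. Of the 31 members, 15 fell (48.4%, against 25% of all genes tested) and 3 rose (9.68%, against 24.6%). Without Fdps and Tm7sf2 14 of 29 fell. With spermine present 13 of 31 fell (41.9%, against 22.1%) and 3 rose (9.68%, against 19.7%). The median change was -0.22 in PBS and -0.28 with spermine, beside -0.02 and -0.01 over all genes, and it was more negative after TPM rescaling (-0.70 and -0.64) and quantile normalization (-0.45 and -0.42). On the TPM scale 23 members fell and 0 rose in PBS, and 20 fell and 1 rose with spermine. Of all changed genes, those that rose made up 49.6% in PBS, 21.1% after TPM rescaling and 36.6% after quantile normalization, and with spermine it was 47.1%, 21.5% and 33.6%. These 2 responses share no library in their means, but their calls rest on the same estimate of spread from all 8 libraries. Fads1, Fasn, Fdft1, Hmgcs1, Hsd17b7, Lss, Msmo1, Sc5d, Scd2, Sqle and Stard4 fell in both, 73.3% of those that fell in PBS and 84.6% of those that fell with spermine. The 3 genes that rose were the same in both, Ebp, Insig1 and Pmvk, although Ebp and Insig1 turned negative after TPM rescaling, and Insig1 also after quantile normalization. For these responses too, overlaps over all genes tested were not counted. The number that rose with spermine was 1 without spermine 0 h replicate 1, 1 without spermine 3 h replicate 1 and 1 without spermine 3 h replicate 2.

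**Figure D4:**
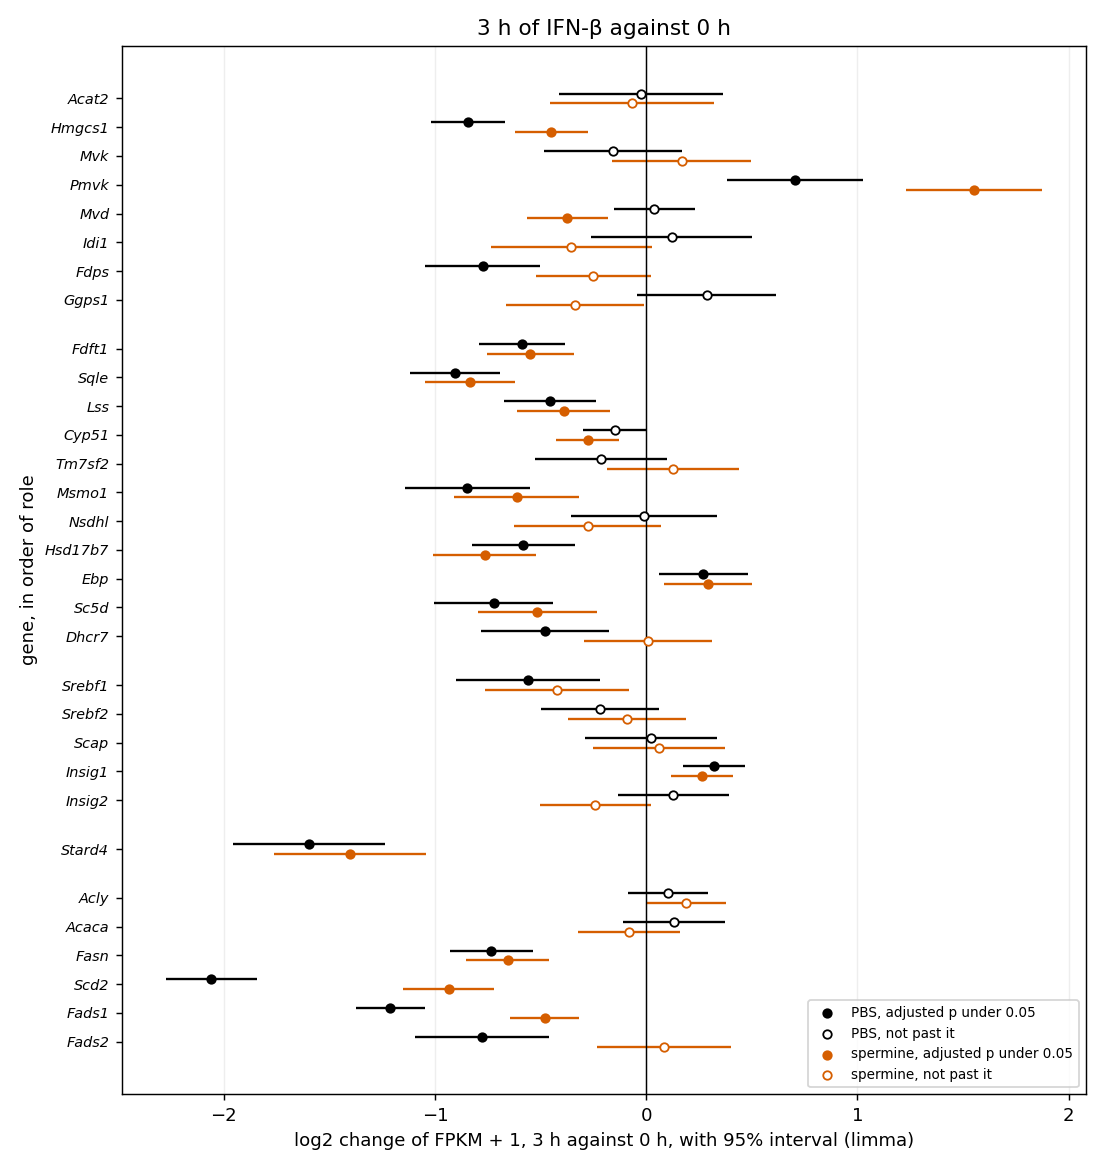
Change of each tested member from 0 h to 3 h of IFN-β, on the log2 scale of FPKM + 1, in PBS (black) and with spermine (orange), with 95% limma intervals (n = 2 libraries a group). Filled points passed the test. Scd2, Stard4 and Fads1 lie farthest to the left in PBS (-2.06, -1.60 and -1.21), and Pmvk lies farthest to the right in both (0.70 and 1.55).

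Scd2 had the steepest fall of any member in PBS, from 11.1 and 10.6 FPKM to 1.98 and 1.70 (-2.06 ± 0.09 SE, limma, adjusted p = 2.94e-06). With spermine it fell from 5.05 and 5.33 to 2.07 and 2.41 (-0.94, adjusted p = 0.000252), from a lower level at 0 h to a similar one at 3 h. Stard4 fell by 1.60 on the log2 scale in PBS (adjusted p = 0.000136) and by 1.40 with spermine (adjusted p = 0.000411), with all 4 libraries at 3 h below all 4 at 0 h. Fads1 fell by 1.21 in PBS (adjusted p = 1.03e-05) and by 0.48 with spermine (adjusted p = 0.00158). Fasn, fatty acid synthase, went from 6.09 and 6.72 FPKM to 3.36 and 3.55 in PBS and from 6.56 and 7.18 to 3.87 and 4.11 with spermine, log2 changes of -0.73 and -0.66. Acly and Acaca did not pass in either (-0.08 to 0.19). Without the filter on low levels Elovl6 fell in PBS (-0.47, adjusted p = 0.00844) and not with spermine (-0.03).

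Among the sterol genes 7 of 11 fell and 1 rose in each response. Over all genes tested 25% fell and 24.6% rose in PBS, and 22.1% fell and 19.7% rose with spermine. Sqle fell by 0.90 in PBS (adjusted p = 0.000176) and by 0.83 with spermine (adjusted p = 0.000426). Msmo1 fell by 0.85 and 0.61, Sc5d by 0.72 and 0.51, Hsd17b7 by 0.58 and 0.76, Fdft1 by 0.59 and 0.55 and Lss by 0.46 and 0.39. The Sc5d call with spermine was lost without spermine 0 h replicate 1 (-0.41) or spermine 3 h replicate 1 (-0.46), and that of Lss without spermine 0 h replicate 2 (-0.35) or spermine 3 h replicate 1 (-0.36). Ctsb, which overlaps Fdft1, rose by 0.32 and 0.21 in these comparisons. The change of Cyp51 was -0.15 in PBS, which did not pass, and -0.28 with spermine, which was lost without spermine 0 h replicate 1 (-0.23), spermine 3 h replicate 1 (-0.27) or spermine 3 h replicate 2 (-0.29). Dhcr7 fell in PBS by 0.48 on the log2 scale, but not past the test with PBS 0 h replicate 1 (-0.50), PBS 0 h replicate 2 (-0.46) or PBS 3 h replicate 1 (-0.31) left out, with no filter or in a fit of the 2 groups alone. Ebp, the sterol isomerase, rose by 0.27 and 0.29, but the TPM scale gave -0.18 and -0.03, and the call was lost without any 1 of 7 libraries in PBS (0.18 to 0.29) and without any library of the pair of groups with spermine (0.22 to 0.36). In PBS the exception was PBS 0 h replicate 2. Neither Ebp call held with no filter, after quantile normalization or in a fit of the 2 groups alone, and that in PBS did not hold without the trend.

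In the mevalonate pathway Hmgcs1 fell by 0.84 on the log2 scale in PBS (adjusted p = 8.96e-05) and by 0.45 with spermine (adjusted p = 0.00298). Pmvk rose from 6.65 and 6.63 FPKM to 10.2 and 12.8 in PBS (0.70, adjusted p = 0.0043) and from 6.98 and 8.28 to 26.6 and 22.1 with spermine (1.55, adjusted p = 0.000143), and in PBS this did not pass on the TPM scale (0.30). Mvd fell with spermine (-0.37), a call lost without spermine 3 h replicate 1 (-0.30). Fdps, tested only through its PBS 0 h level, changed by -0.77 in PBS, to 0.306 and 0.294 FPKM (adjusted p = 0.000966 with no filter). Of its near copies, Gm5873 went from 0.951 to 0.309 FPKM in the PBS group means, and Gm3571 from 3.62 to 3.05. Acat2, Mvk, Idi1 and Ggps1 did not pass in either response, with changes between -0.35 and 0.29. Of the regulators, Srebf1 fell in PBS by 0.56 on the log2 scale (adjusted p = 0.0157), but not past the test with PBS 0 h replicate 2 (-0.45) or PBS 3 h replicate 1 (-0.51) left out. With spermine the Srebf1 change of -0.42 did not pass (limma, adjusted p = 0.0521). It passed as a fall after TPM rescaling (-0.77), after quantile normalization (-0.58) and with limma voom on the rebuilt reads (-0.45). Its difference between the 2 responses (0.14) did not pass. Insig1 rose by 0.32 and 0.27, but by the TPM scale it stood at -0.14 and -0.07 and by quantile normalization at -0.16 and -0.22. The Insig1 call with spermine was also lost without spermine 0 h replicate 1 (0.26), spermine 3 h replicate 1 (0.24) or spermine 3 h replicate 2 (0.29). Srebf2, Scap and Insig2 did not pass in either (-0.24 to 0.13).

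The difference between the IFN-β responses, spermine minus PBS, was tested directly, and it was positive for 3 desaturases and for Pmvk. It passed as higher for 4 of the 31 members (12.9%, against 5.82% of all genes tested) and as lower for 0 (against 7.75%). At an unadjusted p under 0.05 limma gave 7 members higher and 2 lower, Ggps1 and Mvd, and limma voom on the rebuilt reads called 5 higher and 0 lower. The median over the members was 0.08, beside -0.02 over all genes, and it was 0.13 without PBS 0 h replicate 1, 0.02 without PBS 0 h replicate 2, and 0.05 when PBS 3 h replicate 1 or spermine 0 h replicate 1 was left out. For Scd2 the difference was 1.12 ± 0.13 (SE, adjusted p = 0.00388) and for Fads1 0.73 ± 0.10 (adjusted p = 0.00617), and both passed with each library left out. On the TPM scale the median was 0.23 for the members, with the median of all genes shifted by 0.14, and 67.1% of changed genes rose over all genes instead of 42.9%. For Scd2 and Fads1 the levels at 3 h lay close together while those at 0 h were lower with spermine.

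Fads2 had 10.8 and 9.38 FPKM at PBS 0 h and 4.70 and 6.32 at PBS 3 h, but 7.21 and 6.42 at spermine 0 h and 7.05 and 7.51 at spermine 3 h. It fell in PBS (-0.78, adjusted p = 0.00264) and did not pass with spermine (0.09), and the difference of 0.86 ± 0.19 (SE) had an adjusted p of 0.0295. For Pmvk the difference was 0.85 ± 0.19 (adjusted p = 0.0319), with similar levels at 0 h and a higher one at spermine 3 h. Neither passed with no filter. The Fads2 difference did not pass without any 1 of 7 libraries (0.68 to 0.95), the exception being PBS 3 h replicate 2, and the Pmvk difference did not pass without any 1 of 6 libraries (0.70 to 0.98), the exceptions being PBS 3 h replicate 2 and spermine 0 h replicate 2. The number of members that passed as higher was accordingly 2 without either PBS 0 h library, spermine 0 h replicate 1 or either spermine 3 h library. A single member passed as lower with PBS 3 h replicate 2 left out (Idi1, -0.71), and 1 did so with spermine 0 h replicate 2 left out (Ggps1, -0.80). Hmgcs1 had a difference of 0.39 with an adjusted p of 0.0511, and Mvd one of -0.41 with an adjusted p of 0.0593. The Hmgcs1 difference passed as higher after TPM rescaling (0.55), after quantile normalization (0.43) and with limma voom on the rebuilt reads (0.43). The sterol genes had differences between -0.27 and 0.49, none past the test.

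**Figure D5:**
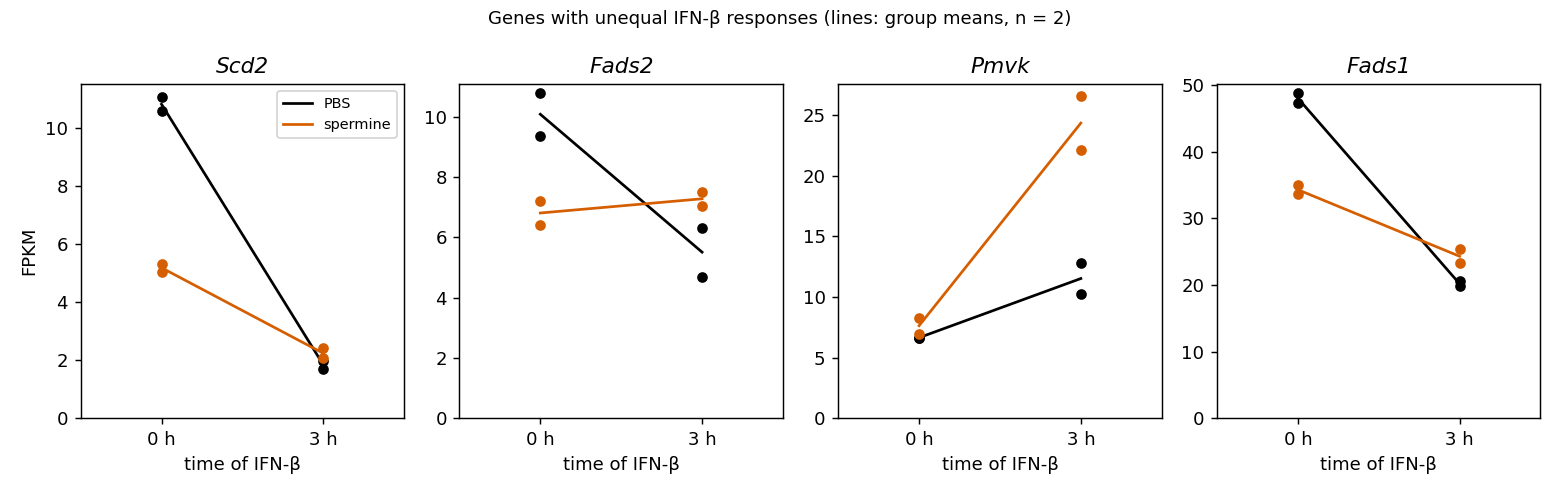
FPKM of the 4 genes whose IFN-β response differed between PBS (black) and spermine (orange), at 0 h and 3 h, with a point for each library and lines through the means of 2 libraries. Scd2 and Fads1 start lower with spermine and end near the PBS level, Fads2 stays between 6.42 and 7.51 FPKM with spermine, and Pmvk reaches 26.6 and 22.1 FPKM at 3 h with spermine against 10.2 and 12.8 in PBS.

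Genes of the same pathways outside the set were counted from lists chosen with earlier results of these data known, and their counts stand against the shares of all genes tested. Those were 22% rising and 19.2% falling with spermine at 0 h, 19.9% and 20.6% at 3 h, 24.6% and 25% with IFN-β in PBS, and 19.7% and 22.1% with IFN-β and spermine. Of 11 other cholesterol synthesis genes, 4 rose with spermine at 0 h (36.4%) and 4 rose (36.4%) and 1 fell at 3 h. Por, the reductase that feeds electrons to CYP51 and SQLE, rose with spermine by 1.18 at 0 h and 1.05 at 3 h. With IFN-β 2 rose and 3 fell in PBS, and 6 fell with spermine (54.5%). Pdss1, which builds the tail of ubiquinone, rose by 1.19 with IFN-β in PBS.

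Of 19 other fatty acid genes tested (of 23), 8 rose (42.1%) and 7 fell (36.8%) with spermine at 0 h, and 7 rose (36.8%) and 4 fell (21.1%) at 3 h. Me1, malic enzyme, a source of NADPH, rose by 1.95 and 1.47, Acss2, which activates acetate, by 1.47 and 1.10, and Slc25a1, the mitochondrial citrate carrier, by 1.11 at 0 h. Oxsm, a synthase of mitochondrial fatty acids, fell at 3 h (-1.32). With IFN-β 3 rose and 6 fell in PBS, including Lpin1, a phosphatidate phosphatase (-1.11), and 4 rose and 6 fell with spermine. Of 15 fatty acid oxidation genes, 2 rose and 5 fell with spermine at 0 h and 1 rose and 3 fell at 3 h, with 4 rising (26.7%) and 1 falling (6.67%) in each IFN-β response, so that the risers were near the share of all genes.

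Sterol uptake and lysosomal release, 7 genes tested of 8, had 5 that rose with spermine at each time (71.4%) and 1 that fell at 0 h. Lipa, the lysosomal lipase that frees cholesterol from its esters, rose by 1.05 at 0 h. Mylip, a ubiquitin ligase that limits lipoprotein uptake, had 9.0 and 9.27 FPKM at PBS 3 h against 37.3 and 36.3 at spermine 3 h (1.90, adjusted p = 5.74e-06), fell with IFN-β in PBS (-1.38) and had a difference of responses of 1.18 (limma, adjusted p = 0.00148). Of 10 genes of SREBP cleavage and INSIG turnover, 3 rose (30%) and 2 fell (20%) with spermine at 0 h, among them Vcp, the segregase of protein turnover (1.06), and 1 rose (10%) and 4 fell (40%) at 3 h, among them Rnf145, a sterol-responsive ligase (-1.06). Rnf139, another ligase of the endoplasmic reticulum, rose with IFN-β by 1.63 in PBS and by 1.27 with spermine.

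Of 7 genes tested for oxysterols and their receptor LXR, 2 rose (28.6%) and 4 fell (57.1%) with IFN-β in PBS. With IFN-β and spermine 2 rose (28.6%) and 1 fell (14.3%). Spermine against PBS gave 1 that rose (14.3%) and 2 that fell (28.6%) at each time. Ch25h, which makes 25-hydroxycholesterol, an oxysterol that restrains SREBP processing, went with IFN-β from at most 0.162 FPKM to 98.0 and 98.9 in PBS. With spermine it went from 0.537 and 0.529 FPKM to 40.7 and 42.7, and the difference of responses was -1.73 (adjusted p = 0.00133). At 3 h Ch25h was lower with spermine than in PBS (-1.22, adjusted p = 0.000107). Abcg1, a cholesterol exporter, rose with IFN-β by 2.34 in PBS and 2.19 with spermine, and Rxra, the partner of the oxysterol receptor LXR, fell (-1.71 and -1.17).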

How the data were processed

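RNA of mouse bone marrow derived macrophages was poly(A) selected and sequenced in 8 libraries, per the labels' protocols, whose extraction step names blood although the labels give macrophages. The authors deposited FPKM per gene with gene lengths and positions. Per the submitters' processing notes, the tools were HISAT2 2.0.5, featureCounts 1.5.0-p3, fastp, CASAVA 1.8 and DESeq2 1.20.0, with the builds GRCm38 and mm10. How strand and multi-mapping reads were handled was not given in the sources used here. FPKM times length was a whole multiple of 1 step per library for 100% of values (tolerance 0.001), so reads were rebuilt from it.

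Log2(FPKM + 1) of the 11421 genes with at least 1 FPKM in at least 2 libraries was fitted with limma 3.58.1 (R 4.3.3, intensity trend, 4 group means, 4 residual and 2.83 prior degrees of freedom). Tests were two-sided and p-values adjusted by Benjamini-Hochberg over all genes of each of 5 comparisons, at a threshold of 0.05. The 16 alternatives changed the pseudocount (0.1), filter, scaling, trend, block, model or samples, or left out each library. Tables used Python 3.11.15, pandas 2.3.3 and numpy 2.4.6, figures matplotlib 3.10.9, and the script was tested on simulated data. Near copies are other genes with at least 95% identity over at least 200 bases of a transcript (blastn 2.17.0, GENCODE transcripts). They include genes that overlap the member. Reads of members that have them, or that overlap a gene on the other strand, are uncertain. Near copies were found for 10 members. A symbol on several rows was taken from the row of highest read count.

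The members, lists and markers were chosen with earlier results of these data known. All members are named by role, with the value in every library for those that changed by at least 1 log2 unit in a comparison and for the 5 regulators; a few others have library values too. In the other lists, genes past the test with a change of at least 1 are named, at most 4 per list and comparison. Results for some genes of these lists are not reported here.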

Additional observations from a re-analysis of the deposited data

Results flagged for a closer look

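The response to IFN-β differed between spermine and PBS for 4 of the genes, by limma's test of the difference of the 2 responses (log2, spermine minus PBS, n = 2 libraries a group). Scd2 fell less with spermine, with a difference of 1.12 (adjusted p = 0.00388), and Fads1 did likewise, with a difference of 0.73 (adjusted p = 0.00617). Fads2 fell in PBS and did not pass with spermine, with a difference of 0.86 (adjusted p = 0.0295). Pmvk rose more with spermine, with a difference of 0.85 (adjusted p = 0.0319). The differences of Scd2 and Fads1 passed under each alternative that was run, and those of Fads2 and Pmvk did not pass without the filter on low levels or without most single libraries.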

How the results depend on the processing

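Of the 67 calls of members over the 5 comparisons, all passed with a pseudocount of 0.1, with limma voom on rebuilt reads and with the replicate block; 65 passed without the trend, 59 after quantile normalization, 54 without the filter and 53 after TPM rescaling. Calls held under every alternative that tested the gene for 13 of 18 genes for IFN-β in PBS and 10 of 16 for IFN-β with spermine. They did so for 10 of 16 for spermine at 0 h, 8 of 13 at 3 h and 2 of 4 for the difference of responses. Fdps is counted among the 13 and among the 10 for spermine at 0 h. It could not be tested with either PBS 0 h library left out, so these settings say nothing about its calls.

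After TPM rescaling IFN-β in PBS gave 0 members that rose and 23 that fell, with Ebp at -0.18 and Insig1 at -0.14; IFN-β with spermine gave 1 and 20, with Ebp at -0.025 and Insig1 at -0.068; spermine gave 6 and 13 at 0 h, with Fdft1 at -0.024, and 7 and 5 at 3 h. The members' medians there were -0.70, -0.64, -0.22 and 0.0019, and 0.23 for the difference of responses. After quantile normalization 1 member rose with IFN-β in PBS and 1 with spermine, with Insig1 at -0.16 and -0.22 and medians of -0.45 and -0.42. Medians for IFN-β were -0.39 and -0.38 with the lower pseudocount and -0.41 and -0.38 with voom, which also gave 2 members that fell with spermine at 3 h. Without the filter 6 members rose with spermine at 0 h and 2 passed as higher in the difference. The cause was not tested beyond the scaling itself.

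Leaving out a library gave medians of -0.33 to -0.15 for IFN-β in PBS, -0.34 to -0.23 with spermine, 0.062 to 0.17 for spermine at 0 h and 0.12 to 0.26 at 3 h. It gave 1 to 3 members that rose with IFN-β and spermine, 6 to 10 that rose with spermine at 0 h, 1 to 3 that fell at 3 h, and 2 to 5 higher and 0 to 1 lower in the difference. All genes that changed numbered 3176 to 4861 for IFN-β with spermine, 2914 to 4892 for spermine at 0 h, 2910 to 4648 at 3 h and 496 to 1588 for the difference, against 4768, 4706, 4626 and 1550 with all libraries.

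With the replicate block all genes that changed numbered 5956 and 5033 for IFN-β, 4996 and 4978 for spermine and 1813 for the difference; 2 members fell with spermine at 3 h and 3 passed as lower in the difference. The block added 9 calls: Acly, Srebf1, Insig2 and Ggps1 for IFN-β with spermine, Insig2 for spermine at 3 h (adjusted p = 0.0197, limma), and, for the difference, Hmgcs1, Mvd, Insig2 and Ggps1 (adjusted p = 0.037, 0.0418, 0.0458 and 0.0372). Deviations of same-numbered libraries correlated above 0.1 in 3 of 6 pairs of groups (up to 0.371) and below 0 in the 3 with spermine 3 h (down to -0.126). The sample titles carry the prefix BM1 or BM2 in each of the 4 groups and do not say what it marks. As not every pair correlated above 0.1 and the labels name no shared origin, the libraries were not treated as paired. These correlations cannot exclude pairing, and whether the prefixes mark a shared origin was not tested further.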
